A study of Rattus norvegicus with 6 samples.

Results

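The glucocorticoid receptor gene Nr3c1 and 8 genes of its pathway, Zbtb16, Mt2A, Fkbp5, Tsc22d3, Sgk1, Klf9, Cebpd and Hsd11b1, were followed in whole hearts of male Sprague-Dawley rats aged 10 weeks. Members were taken by gene symbol, and each of the 9 was matched by 1 row of the array, out of 23188 transcript rows. RNA was measured on 6 Clariom S Rat microarrays, which give 1 log2 signal per transcript, with 2 arrays in each of 3 groups. The normal group was labelled as healthy heart, the TAC group as heart under transverse aortic constriction, a silk tie that narrows the aorta and loads the left ventricle, and the TAC-R group as heart released from that constriction. The surgical protocol describes control rats spared only the ligation, and it is unstated if these gave the normal hearts. The sources used here give neither the time under constriction or after release, nor the time of day of collection, nor corticosterone levels. The labels do not tie arrays to animals, so the p-values measure only how far these arrays spread, and that spread may be technical. Cultured fibroblasts are named in the extraction text, whereas all other fields name whole heart. Of 10 cardiomyocyte markers 9 had a row, none of these lay in the background (below the 95th percentile of the negative control rows of its array), and 4 were at the highest recorded value on all 6 arrays.

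Glucocorticoids are adrenal steroids that enter cells and bind the glucocorticoid receptor, which is held in the cytoplasm by heat shock proteins and moves to the nucleus once bound. There it induces genes that limit inflammation, alter metabolism and feed back on the receptor itself, and it restrains many inflammatory genes. Heart muscle cells carry this receptor together with the related mineralocorticoid receptor, and corticosterone is the main glucocorticoid of the rat.

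On the arrays labelled TAC-R, Zbtb16 and Mt2A rose above the TAC arrays, and the other 7 genes did not pass the test (limma, Benjamini-Hochberg adjusted p under 0.05). Of all 23188 rows 0.224% were called higher in that comparison, 0.207% lower and 0.431% in either direction, against 2 of the 9 genes, both higher. The 9 were chosen with earlier results of these data known, so no weight rests on that contrast. The zinc finger repressor gene Zbtb16 differed by 1.72 ± 0.23 log2 units (difference ± standard error of the model) and the metallothionein gene Mt2A by 1.65 ± 0.22. Both stood against TAC signals in the background. With those signals counted at the 95th percentile of the negative controls, the measured rises are at least 2.52-fold and 2.31-fold. This bound allows for the background only, not for the spread between arrays. The receptor gene itself differed by 0.14 ± 0.22. Between TAC and normal hearts 0 of the 9 genes were called by limma (3 at an unadjusted p under 0.05), where 0.254% of all rows were called, 0.19% higher and 0.0647% lower. Of the 9 differences 8 were negative, among them those of Mt2A and Cebpd, whose signals were in the background in both groups. Sgk1 was at -0.96 and Zbtb16, in the background under TAC, at -1.04. By the same bound that Zbtb16 difference is at least 1.57-fold, and neither gene passed. Between TAC-R and normal hearts 0 of the 9 were called by limma as well (4 at an unadjusted p under 0.05), against 0.0906% of all rows, 0.0604% higher and 0.0302% lower. Sgk1 was at -1.23 and Mt2A, in the background on the normal arrays, at 1.31 as measured. By the same bound that Mt2A difference is at least 1.84-fold, and neither gene passed.

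Because Mt2A was 1 of the 2 genes that rose, its upstream sequence is shown with that of Mt1, another metallothionein gene on the same chromosome, which was picked after its values were seen. The capitals mark the core of the metal response element, the zinc-sensing site of metallothionein promoters, searched as TGCACNC and TGCGCNC on both strands. Each sequence holds the 250 bases before the gene's start, from RefSeq on build GRCr8, read 5′ to 3′ on the gene's strand. Mt2A lies at chr19:10838709-10838958 and Mt1 at chr19:10832976-10833225, both on the minus strand.
Mt2A: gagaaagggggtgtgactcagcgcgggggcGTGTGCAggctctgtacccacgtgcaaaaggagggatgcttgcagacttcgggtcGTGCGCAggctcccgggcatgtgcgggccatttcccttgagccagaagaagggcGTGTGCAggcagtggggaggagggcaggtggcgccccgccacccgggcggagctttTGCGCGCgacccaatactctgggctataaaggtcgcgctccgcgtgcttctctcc
Mt1: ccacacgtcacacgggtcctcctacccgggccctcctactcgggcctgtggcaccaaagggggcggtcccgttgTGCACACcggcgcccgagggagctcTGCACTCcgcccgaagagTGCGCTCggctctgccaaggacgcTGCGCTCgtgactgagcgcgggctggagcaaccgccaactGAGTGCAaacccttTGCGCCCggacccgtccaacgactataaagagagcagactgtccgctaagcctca
The core was matched 4 times before Mt2A and 6 times before Mt1. Of 33469 upstream windows of the same length, 20.6% held at least 1 match and 0.266% held 4 or more. The cut of 4 equals the count of Mt2A, and the core was searched as a known site of metallothionein promoters. These shares are therefore a description and not a test. The starts of the 2 genes are 5733 bases apart. Among the members' windows the core was found in 2, that of Mt2A and, with 1 match, 1 of those of Nr3c1.

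The upstream windows of the members were also searched for the element that the receptor binds, AGAACA and TGTTCT with 3 bases of any kind between them, and for AGAACA alone, which the element contains, on both strands. RefSeq windows were at hand for 6 members, Nr3c1, Mt2A, Fkbp5, Tsc22d3, Sgk1 and Klf9, with 11 windows in all because some genes have several starts. The element was found in 0 of the 11 windows and in 0.012% of all windows. The shorter unit was found in 0 of the 11 and in 17.5% of all windows. These counts say only that the letters do not occur in the 250 bases searched.

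**Figure D1:**
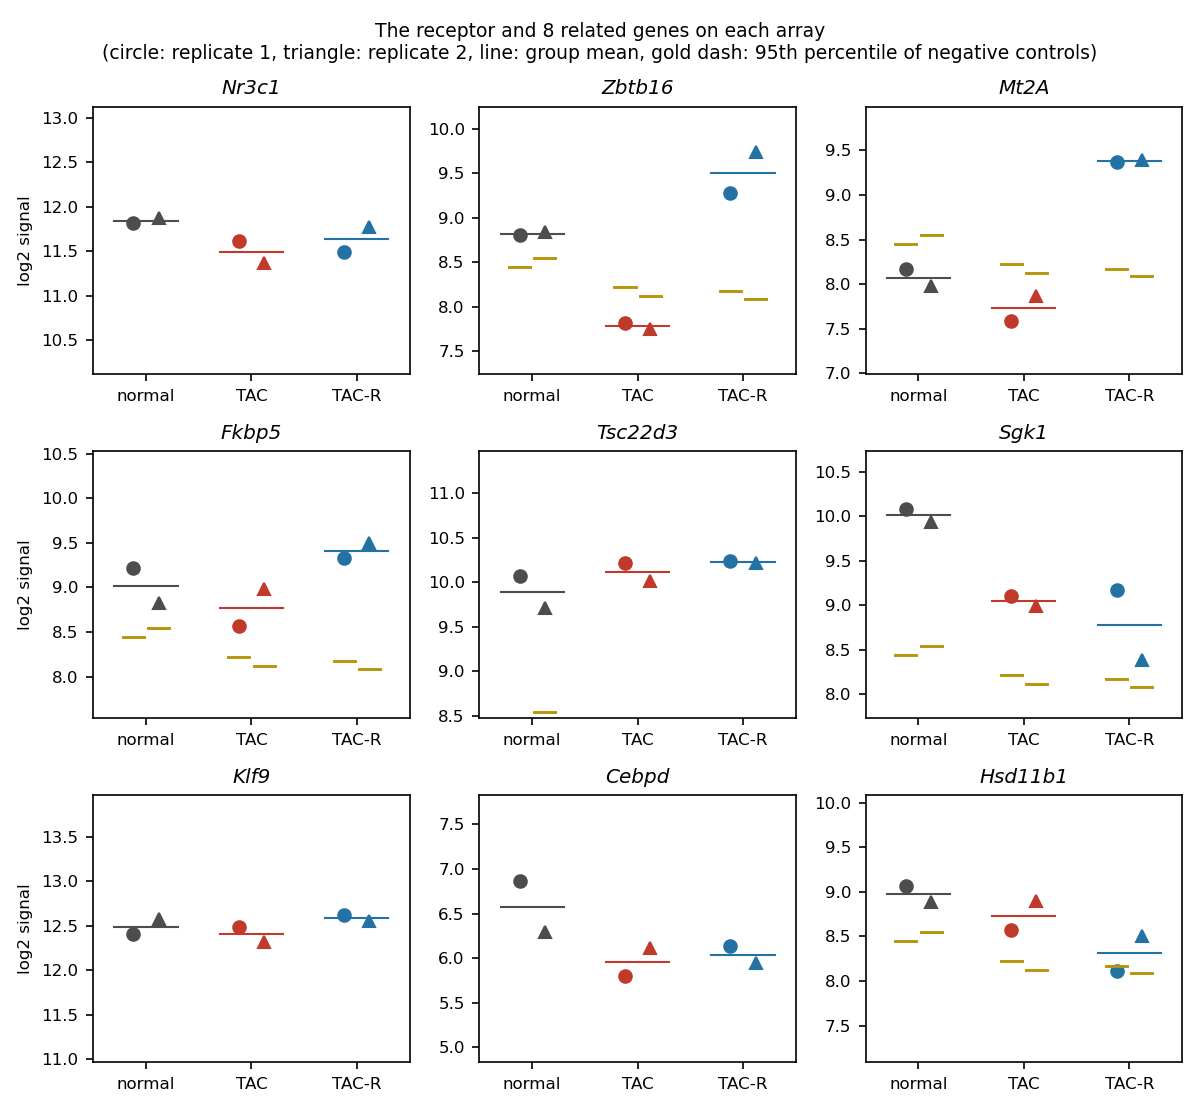
Each panel plots the log2 signal of 1 gene on the 6 arrays, by group, with circles for replicate 1, triangles for replicate 2 and a line at the group mean. Gold dashes mark where 95% of the array's negative control rows lie lower, if that falls inside the panel, and each panel spans 3 log2 units, and the TAC-R arrays lie above all 4 others for Zbtb16, Mt2A and Fkbp5.

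The receptor and its ligand supply were described first. Nr3c1 was 11.82 and 11.87 on the normal arrays, 11.61 and 11.37 on the TAC arrays and 11.50 and 11.77 on the TAC-R arrays, all in log2 units. Both normal arrays lay above the other 4, while the TAC and TAC-R arrays overlapped. The group means were 11.84 ± 0.035, 11.49 ± 0.17 and 11.63 ± 0.20 (mean ± SD, n = 2 each). The difference between TAC and normal was -0.35 ± 0.22 (adjusted p = 0.61 by limma, 95% interval -0.86 to 0.15), and that between TAC-R and normal was -0.21 ± 0.22 (adjusted p = 0.778). After release against TAC the interval ran from -0.36 to 0.65 (adjusted p = 0.865). All 3 intervals spanned 0.

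Hsd11b1 encodes the enzyme that regenerates active glucocorticoid from its inert form inside cells. Its signals were 9.06 and 8.89 on the normal arrays, 8.57 and 8.90 under TAC and 8.11 and 8.51 on the TAC-R arrays. Both TAC-R arrays lay below the other 4, and TAC-R replicate 1 was in the background. The difference between TAC-R and normal was -0.67 ± 0.24 (unadjusted p = 0.0224, adjusted p = 0.39 by limma), and that between TAC-R and TAC was -0.43 ± 0.24 (adjusted p = 0.582). Neither passed. Hsd11b2, whose enzyme inactivates the steroid, and H6pd, whose product supplies the cofactor of Hsd11b1, lay in the background on all 6 arrays and were picked after their values were seen.

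Zbtb16, also called PLZF, is a transcriptional repressor that glucocorticoids strongly induce in several tissues. It was 8.81 and 8.84 on the normal arrays, 7.82 and 7.75 on the TAC arrays and 9.27 and 9.73 on the TAC-R arrays. The 3 groups did not overlap, with TAC lowest and TAC-R highest. The means were 8.82 ± 0.019, 7.79 ± 0.051 and 9.50 ± 0.33 (SD, n = 2 each). Against TAC, the TAC-R signal was 1.72 ± 0.23 higher (adjusted p = 0.0248 by limma, 95% interval 1.19 to 2.24). Both TAC arrays lay in the background, so the rise is stated as at least 2.52-fold, counting a dim array at that percentile. The bound leaves out the spread between arrays, which the interval holds. Between TAC and normal the measured difference was -1.04 ± 0.23 (unadjusted p = 0.00166, adjusted p = 0.191), for which the same bound is at least 1.57-fold lower under TAC, and between TAC-R and normal it was 0.68 ± 0.23 (unadjusted p = 0.017, adjusted p = 0.37). Neither of these passed.

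Mt2A encodes a small cysteine-rich protein that binds zinc and copper and is induced by glucocorticoids as well as by metals. Its signals were 8.17 and 7.97 on the normal arrays, 7.58 and 7.87 on the TAC arrays and 9.37 and 9.39 on the TAC-R arrays. The TAC-R arrays were above all others and almost alike, and the 4 normal and TAC arrays lay in the background. Against TAC, Mt2A was higher by 1.65 ± 0.22 on the TAC-R arrays (adjusted p = 0.023 by limma, 95% interval 1.15 to 2.15), which is at least 2.31-fold by the same bound. Against normal hearts the measured difference was 1.31 ± 0.22 (at least 1.84-fold, unadjusted p = 0.000237, adjusted p = 0.0979), which did not pass. It passed with an intensity trend in the moderation (adjusted p = 0.0199), without the rows below the median of means (0.037) and without the rows below the negative control percentile (0.0258), and the adjusted p over 16 alternatives ran from 0.0199 to 0.579. Metallothioneins are alike in sequence, and how far their probes tell them apart was not tested.

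Mt1 was 7.69 and 7.99 on the normal arrays, 8.14 and 8.46 under TAC and 9.03 and 8.92 on the TAC-R arrays. Its TAC-R signals were likewise the highest of the 6, while both normal arrays and TAC replicate 1 lay in the background. TAC-R minus TAC was 0.67 ± 0.23 as measured (adjusted p = 0.325 by limma) and did not pass. Nor did TAC-R against normal (adjusted p = 0.17), where the bound is a log2 difference of at least 0.48. With normal arrays in the background, the sizes of the TAC minus normal differences of Mt1 and Mt2A are not measured (adjusted p = 0.522 and 0.614).

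Both calls rested on the spread pooled over all 3 groups. The Zbtb16 call passed in 7 of 16 alternatives and the Mt2A call in 8, with the difference between 1.48 and 1.95 for Zbtb16 and between 1.51 and 1.79 for Mt2A. Both lost the call whichever of the 6 arrays was left out, with adjusted p from 0.0664 (without TAC-R replicate 1) to 0.209 (without TAC replicate 2) for Zbtb16 and from 0.064 (without either normal array) to 0.194 (without TAC replicate 1) for Mt2A. With only the 2 groups compared, the adjusted p was 0.0739 and 0.064.

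**Figure D2:**
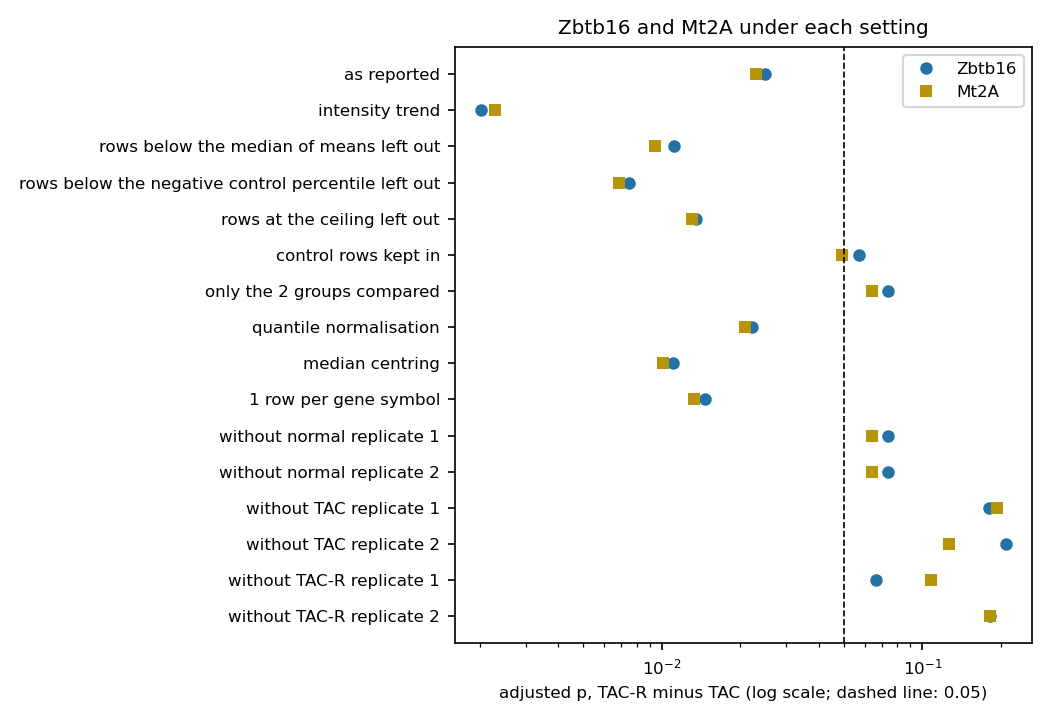
The horizontal axis gives the adjusted p of the difference between TAC-R and TAC on a log scale for Zbtb16 (circles) and Mt2A (squares), with a row for each plotted setting of the fit and a dashed line at 0.05. The setting with the replicate number as a block is not plotted, and neither gene passed in it. All points without 1 of the 6 arrays lie to the right of the line, and the points of both intensity-dependent filters and of both rescalings lie to its left.

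In TAC-R minus TAC the median difference of the 9 was 0.14, against 0.0045 over all rows. Both groups stood apart without overlap for 5 of the 9 (4 higher and 1 lower), as they did for 40.5% of all rows (20.1% higher and 20.4% lower), so that count is close to the background. The members were picked with earlier results of these data known, and no weight rests on their number.

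Fkbp5 encodes a co-chaperone that lowers the receptor's affinity for its ligand and is a sensitive marker of receptor activity. It was 9.21 and 8.83 on the normal arrays, 8.56 and 8.98 under TAC and 9.33 and 9.50 on the TAC-R arrays. The TAC-R arrays lay above the other 4, and the normal and TAC arrays overlapped. The difference between TAC-R and TAC was 0.64 ± 0.25 (unadjusted p = 0.0301, adjusted p = 0.391 by limma) and did not pass, with an interval from 0.078 to 1.20. TAC minus normal was -0.25 ± 0.25 (adjusted p = 0.766).

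Tsc22d3 encodes GILZ, a leucine zipper protein that carries part of the anti-inflammatory action of glucocorticoids. Its signals were 10.07 and 9.71 on the normal arrays, 10.21 and 10.02 under TAC and 10.24 and 10.21 on the TAC-R arrays. TAC overlapped with both other groups. The difference between TAC-R and TAC was 0.11 ± 0.23, with an interval from -0.40 to 0.62 (adjusted p = 0.903 by limma).

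Sgk1 encodes a kinase that both corticosteroid receptors induce and that acts on ion channels and cell survival. It was 10.08 and 9.94 on the normal arrays, 9.10 and 8.995 under TAC and 9.17 and 8.38 on the TAC-R arrays. The normal arrays were the highest 2 of the 6, and the TAC and TAC-R arrays overlapped. TAC minus normal was -0.96 ± 0.28 (unadjusted p = 0.00789, adjusted p = 0.323 by limma) and TAC-R minus normal was -1.23 ± 0.28 (unadjusted p = 0.00187, adjusted p = 0.225), and neither passed. The TAC-R mean of 8.78 ± 0.56 (SD, n = 2) had the largest SD of any member and group. TAC-R minus TAC was -0.27 ± 0.28 (adjusted p = 0.782), and 0.12 without TAC-R replicate 2.

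The transcription factor genes Klf9 and Cebpd were the other 2 targets. Klf9, a rapid receptor target in many cells, was 12.41 and 12.58 on the normal arrays, 12.49 and 12.32 under TAC and 12.62 and 12.55 on the TAC-R arrays. All 6 values lay between 12.32 and 12.62, with TAC-R just above TAC and overlapping with normal. The differences were -0.087, 0.18 and 0.095 in the order TAC minus normal, TAC-R minus TAC and TAC-R minus normal (standard error 0.21, adjusted p = 0.921, 0.809 and 0.909 by limma). Cebpd, a C/EBP family factor of the acute phase response, lay in the background on all 6 arrays, from 5.80 on TAC replicate 1 to 6.86 on normal replicate 1. The size of its differences is therefore not measured. None passed, with adjusted p from 0.468 to 0.941.

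**Figure D3:**
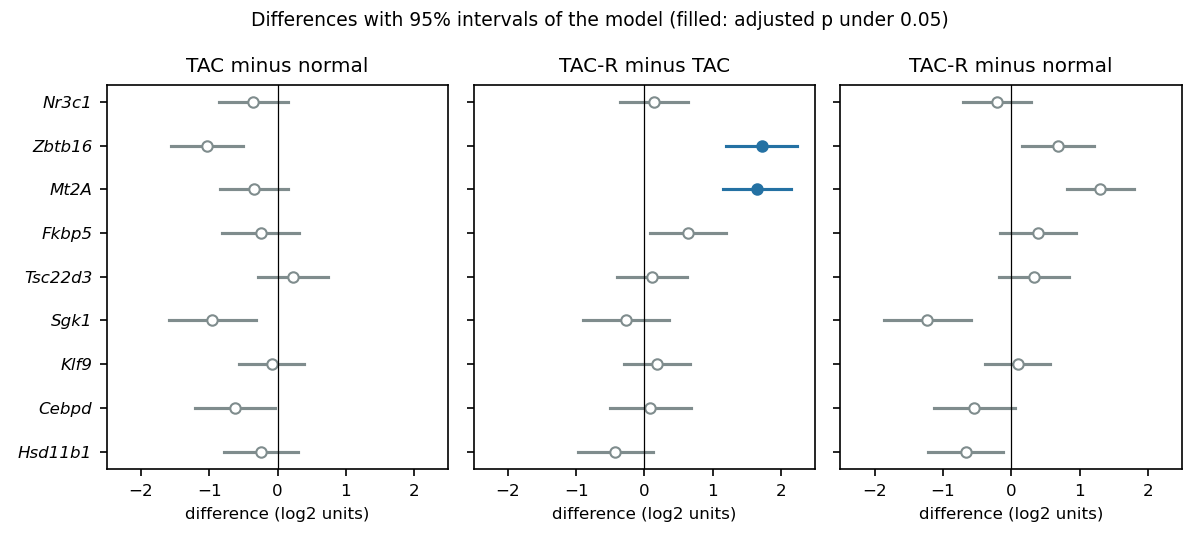
For each gene the point gives the difference in log2 units and the bar its 95% interval from the model, with a panel for each comparison and filled points at an adjusted p under 0.05. Zbtb16 and Mt2A in TAC-R minus TAC are the filled points, while the intervals of Nr3c1, Tsc22d3 and Klf9 cross 0 in all 3 panels.

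Against normal hearts, both comparisons were without a call among the members. In TAC minus normal 10.3% of all rows had an unadjusted p under 0.05, against 3 of the 9. Both TAC arrays lay below both normal arrays for 5 of the 9 and above them for 0. Among the 5, Mt2A and Cebpd lay in the background in both groups. Such separation occurred in 43.3% of all rows, 21.3% lower and 21.9% higher. The median difference of the 9 was -0.34, which is the value of Mt2A, against 0.0017 over all rows. Over the 8 brighter members the median was -0.296, against 0.0768 over all rows as bright. In TAC-R minus normal 10.7% of all rows had an unadjusted p under 0.05, against 4 of the 9. Both groups stood apart for 4 members upward and 4 downward (Cebpd, in the background, among the latter), against 20.6% and 20.3% of all rows (40.9% together). The comparisons share arrays and their values are given side by side, not as support for each other.

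The rest of the pathway was read from 4 lists, which do not contain the members. Of 40 other glucocorticoid-induced genes 35 had a row. In TAC-R minus TAC 1 rose, Per1, 0 fell and 34 did not pass (11 of the 35 at an unadjusted p under 0.05, against 11.0% of all rows), and the median difference was 0.20 against 0.0045 over all rows. Over the 24 brighter genes of the list the median was 0.034, against 0.0089 over all rows as bright. In TAC-R minus normal 0 rose, 1 fell, Dusp1, and 34 did not pass, where 0.0906% of all rows were called. At an unadjusted p under 0.05 by limma there were 13 of the 35, in both directions, against 10.7% of all rows. In TAC minus normal limma called 0 of the 35, against 0.254% of all rows (5 at an unadjusted p under 0.05, against 10.3%).

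Per1, a period gene of the circadian clock that glucocorticoids also induce, was 9.48 and 9.61 on the normal arrays, 9.02 and 8.62 under TAC and 11.03 and 10.25 on the TAC-R arrays. As for Zbtb16, the 3 groups did not overlap, with TAC lowest and TAC-R highest. Per1 rose by 1.82 ± 0.29 from TAC to TAC-R (adjusted p = 0.0446 by limma), and its difference from normal was 1.10 ± 0.29 (adjusted p = 0.284). The Per1 call passed in 7 of 16 alternatives. It was lost whichever array was left out, with adjusted p from 0.0717 without TAC-R replicate 2 to 0.281 without TAC replicate 2. Other settings that lost it included control rows kept in (0.0874) and a fit of only the 2 groups compared (0.117).

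Dusp1 encodes a phosphatase that switches off MAP kinases and is itself induced by glucocorticoids. It was 14.35 and 14.24 on the normal arrays, 13.73 and 13.95 under TAC and 12.78 and 12.51 on the TAC-R arrays. Here the 3 groups did not overlap, with normal highest and TAC-R lowest. Dusp1 fell by 1.65 ± 0.22 from normal to TAC-R (adjusted p = 0.0493 by limma), and its difference from TAC was -1.20 ± 0.22 (adjusted p = 0.0737). The call against normal passed in 7 of 16 alternatives. It was lost whichever array was left out (adjusted p from 0.118 without either TAC array to 0.436 without normal replicate 1). Other settings that lost it included control rows kept in (0.11) and a fit of only the 2 groups compared (0.118). Pik3r1, the regulatory subunit of PI3 kinase and the next of the brighter genes of its list by size, had a TAC-R minus TAC difference of 0.84 ± 0.21 (adjusted p = 0.182).

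**Figure D4:**
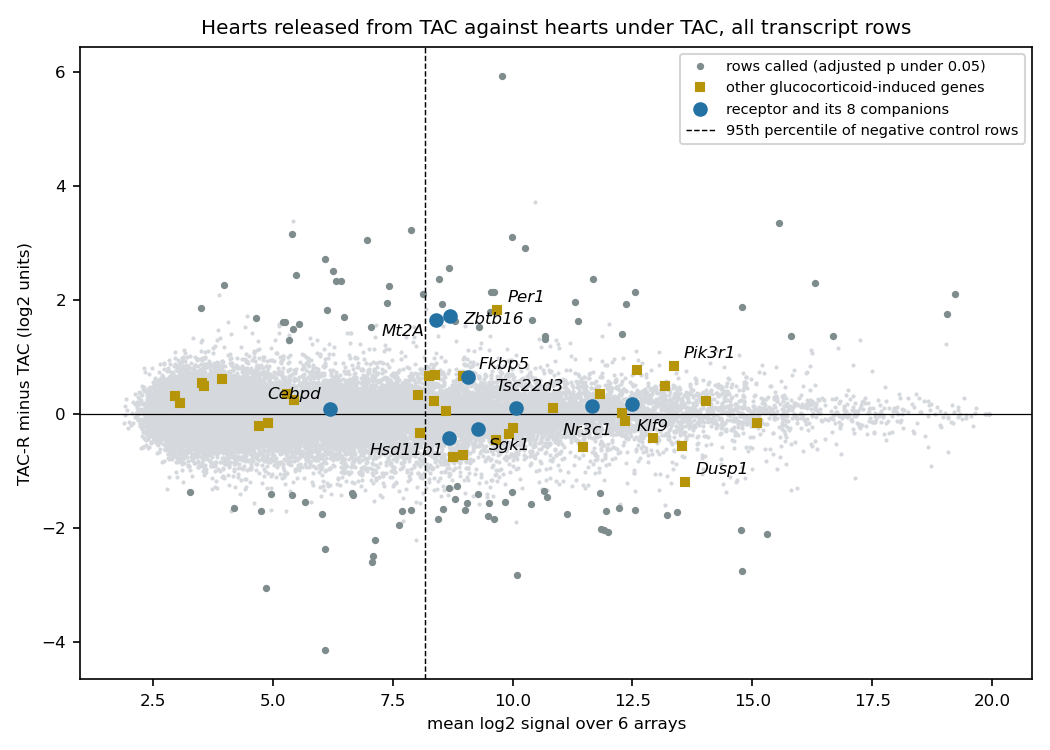
Each grey dot is 1 of 23188 transcript rows, with its mean log2 signal over 6 arrays on the horizontal axis and the TAC-R minus TAC difference in log2 units on the vertical axis, dark dots being the 100 rows called. Blue circles mark the receptor and its 8 companions and gold squares the other glucocorticoid-induced genes, with Mt2A at 1.65, Zbtb16 at 1.72, Per1 at 1.82 and Dusp1 at -1.20. The dashed line marks the 95th percentile of the negative control rows.

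The genes of the proteins that hold and serve the receptor showed no call. Of 16 receptor partners and coregulators 11 had a row, all above the background, and limma called 0 in each of the 3 comparisons (0 at an unadjusted p under 0.05 in each). Of all rows 0.254%, 0.431% and 0.0906% were called in TAC minus normal, TAC-R minus TAC and TAC-R minus normal. In that order 10.3%, 11.0% and 10.7% had an unadjusted p under 0.05. With 11 genes, 0 calls is close to the share of all rows. The TAC-R minus TAC differences of the 11 genes ran from -0.26 for Nr3c2 to 0.40 ± 0.21 for Hsp90aa1 (adjusted p = 0.762 and 0.543 by limma). Nr3c2 is the mineralocorticoid receptor gene, and Hsp90aa1 encodes the inducible HSP90 that keeps the receptor ready to bind. Ncor1, a corepressor, differed by -0.22 ± 0.21 (adjusted p = 0.762). Hsp90aa1 was 14.32 and 14.25 on the normal arrays, 14.34 and 14.24 under TAC and 14.59 and 14.78 on the TAC-R arrays. Its TAC-R arrays were again the highest of the 6.

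The other 2 lists lay in the background. Of 11 genes of corticosteroid handling 8 had a row, and of 18 inflammatory genes that glucocorticoids restrain all 18 had one, and no row mean of either list passed the 95th percentile of the negative control rows. limma called 0 of either list in the 3 comparisons. At an unadjusted p under 0.05 there were 1, 0 and 2 of the 8 and 1, 2 and 3 of the 18, in the order TAC minus normal, TAC-R minus TAC and TAC-R minus normal. Of all rows 10.3%, 11.0% and 10.7% were under it in that order, and 0.254%, 0.431% and 0.0906% were called. Whether the restrained genes moved was not detectable at these signals.

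Markers of other cell types differed between the same arrays. Levels in whole tissue cannot tell fewer cells of a type from less RNA per cell. The 4 atrial myocyte markers had a summed signal of 10.43 to 10.71 log2 units on the normal arrays, 9.22 to 9.43 under TAC and 13.05 to 15.05 on the TAC-R arrays, with 1 of the 4, Myl7, called higher against TAC and against normal (adjusted p = 0.00315 and 0.0105 by limma) and 1 below the background edge on all arrays. On the normal and TAC arrays only Nppa of the 4 lay above the background, with group means of 10.145 and 8.76. Of 7 fibroblast markers, 2, Col1a2 and Col3a1, were called lower on the TAC-R than on the TAC arrays. The summed signals were 17.45 to 17.54 under TAC and 16.47 to 16.85 after release against 17.01 to 17.35 in normal hearts. Dcn, which was not called, had the highest signal on every array and weighed most in these sums. The mean log2 signals of the 7 were 11.99 to 12.05 under TAC, 10.67 to 10.93 after release and 11.23 to 11.40 in normal hearts. Of 6 erythroid markers 5 were called higher in TAC than in normal hearts and 3 lower in TAC-R than in TAC. Their mean log2 signals were 12.46 to 12.72 in normal hearts, 14.85 to 14.94 under TAC and 13.36 to 13.52 after release, and the TAC values are lower bounds because Hba-a1 was at the highest recorded value on both TAC arrays. On TAC-R replicates 1 and 2, in that order, the atrial sums were 15.05 and 13.05, Zbtb16 was 9.27 and 9.73, Mt2A 9.37 and 9.39 and Per1 11.03 and 10.25. All 5 adipocyte markers with a row, and 6 of 8 macrophage and leukocyte markers, were below the background edge on all 6 arrays. The endothelial markers had 0 of 6 called in each comparison. Of 6 markers of smooth muscle and pericytes 1, Cnn1, was called, higher in TAC than in normal hearts (adjusted p = 0.0319 by limma) and in the background on all 6 arrays. At an unadjusted p under 0.05 there were 0, 4 and 3 endothelial and 3, 5 and 1 smooth muscle markers, in the order TAC minus normal, TAC-R minus TAC and TAC-R minus normal. Of all rows 10.3%, 11.0% and 10.7% were under it in that order, and 0.254%, 0.431% and 0.0906% were called. The endothelial and the smooth muscle list each had 6 of 6 lower values after release than under TAC. The part of these cell types in the Zbtb16, Mt2A and Per1 values was not tested.

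**Figure D5:**
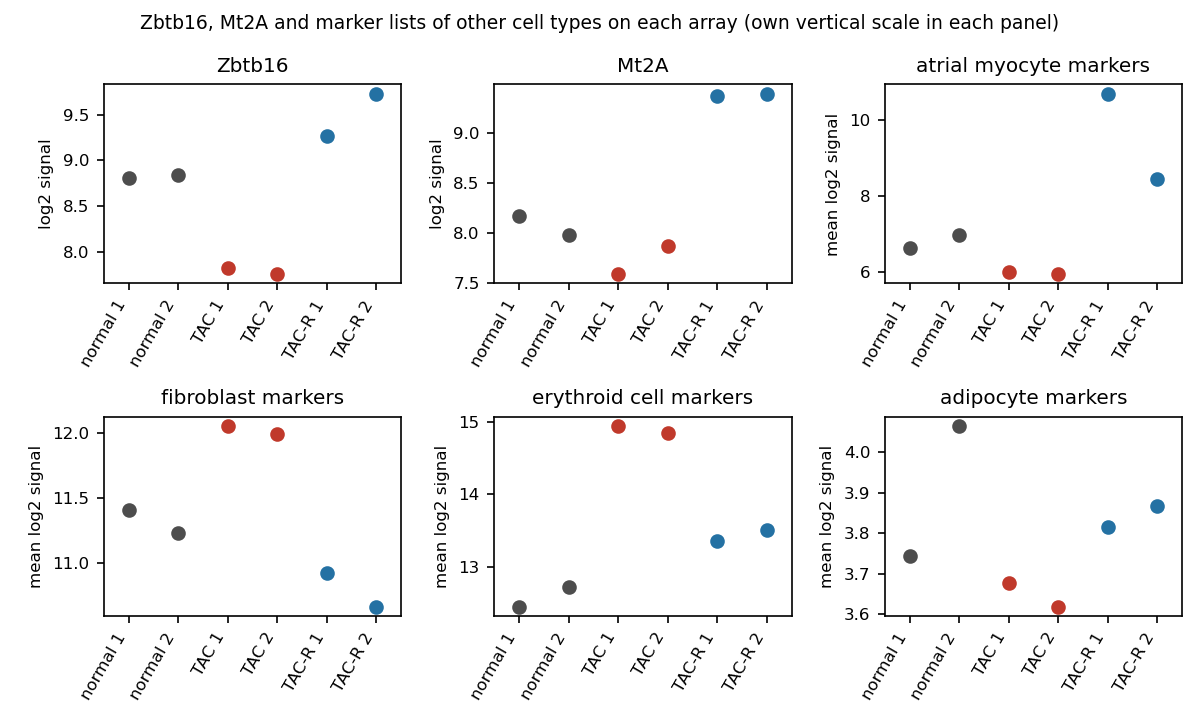
The first panels plot the log2 signals of Zbtb16 and Mt2A on each of the 6 arrays, and the others the mean log2 signal of the markers of atrial myocytes, fibroblasts, erythroid cells and adipocytes, each on its own vertical scale and coloured by group. Atrial markers are highest and fibroblast markers lowest on the TAC-R arrays, while erythroid markers are highest on the TAC arrays.

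The genes most like each member were sought by Pearson correlation over the 6 arrays among 4569 other named genes above the background. With 6 points that share their arrays and groups this is a description only. For Zbtb16 they were Tceal8, the co-chaperone gene Dnajb4 and Csrp3, which encodes the muscle LIM protein of the Z-disc (r = 0.993, 0.993 and 0.989), and 39 genes exceeded 0.95. Those for Mt2A were Aldh1a1, Mrps7 and Capns1 (r = 0.989, 0.988 and 0.988), with 44 genes above 0.95. Nr3c1 was followed most closely by Golph3, Cavin2 and Prkag2 (r = 0.998, 0.987 and 0.986), of which Cavin2 stands on the list of glucocorticoid-induced genes. Sgk1 ran with Pitpnm2, Slco3a1 and Zfp36 (r = 0.995, 0.994 and 0.993), the last of which encodes an RNA-binding protein that destabilises cytokine transcripts and is on the same list. The highest value for Fkbp5 was 0.989 with Becn1, for Tsc22d3 0.992 with Exoc4, for Klf9 0.997 with Prkacb and for Hsd11b1 0.978 with Dusp6. Cebpd, in the background, was not searched.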

How the data were processed

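The deposited log2 signals of 6 arrays were used as given. Per the labels, the authors obtained RMA values (robust multi-array average) from Expression Console, summarising core exons. The sources used here name no version, probe annotation or background setting. RMA scales arrays to each other, so a shift of all transcripts together cannot be seen. Of 24834 rows, 1646 control rows were left out and 23188 tested. Genes were named from the platform table, 1 row per gene by highest mean (15049 rows with a symbol, 8139 without).

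Differences were tested with limma 3.58.1 in R 4.3.3, on a model of 3 group means over the 6 arrays, with empirical Bayes moderation (3 residual and 5.71 prior degrees of freedom). Benjamini-Hochberg adjustment ran over all 23188 rows, and calls were made under 0.05. With 2 arrays against 2, the smallest p of an exact permutation test is 0.333, and none was run. A signal below the 95th percentile of its array's negative controls (8.09 to 8.55) was taken as background. Array medians ran from 5.31 to 5.39, and no 2 arrays were duplicates (r from 0.988 to 0.993). The number of arrays limits the precision.

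Members and lists were chosen with earlier results of these data known. All 9 members were named. From each list were named the genes called in any comparison and the 3 brighter genes with the largest TAC-R minus TAC difference. The receptor's own upstream windows held no match to its element and are not printed. The fit was tested on simulated data.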

Additional observations from a re-analysis of the deposited data

How the results depend on the processing

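Each fit was repeated under 10 other settings and without each array in turn. Of the member differences, all 143 alternative values in TAC minus normal kept direction and side of the threshold, as did 140 in TAC-R minus normal (Mt2A passed in 3) and 123 in TAC-R minus TAC, where 17 lost a call and 3 changed sign. In TAC-R minus TAC limma called 2 members, 0 without any 1 of the 6 arrays (2 or 3 at an unadjusted p under 0.05), 0 with only the 2 groups compared (3 at an unadjusted p under 0.05) and 1, Mt2A, when control rows stayed in. In TAC-R minus normal it called 1 with an intensity trend or with either filter on dim rows. Arrays with the same replicate number shared no shift over all rows (correlations of deviations from -0.013 to 0.012). Other pairings, such as by animal or processing day, were not examined. With the replicate number as a block 0 members were called after release (3 at an unadjusted p under 0.05, with adjusted p = 0.0538 for Zbtb16 and 0.0555 for Mt2A), and 36, 47 and 11 rows were called in TAC minus normal, TAC-R minus TAC and TAC-R minus normal, against 59, 100 and 21 without it.

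In the same order of comparisons, 170, 344 and 156 rows were called with an intensity trend, 39, 44 and 10 when control rows stayed in, 35, 37 and 12 on only the 2 groups compared, and 0 to 35, 4 to 37 and 0 to 12 without 1 array (limma, at least 1575, 1959 and 1630 at an unadjusted p under 0.05), with the 0 of TAC minus normal falling without TAC replicate 2, the 4 without TAC replicate 2 and the 0 of TAC-R minus normal without normal replicate 2. Without rows below the median of means 187 rows were called in TAC-R minus TAC and 68 in TAC-R minus normal, and without those below the negative control percentile 197 and 52. In TAC-R minus normal 37 were called without rows at the ceiling and 54 with median centring. Fewer arrays leave fewer degrees of freedom, and the cause of the other shifts was not tested. Signs changed only for small differences that did not pass: Cebpd ran from -0.071 to 0.24 and Sgk1 from -0.66 to 0.12 in TAC-R minus TAC without 1 array. Hsp90aa1 in TAC minus normal was -0.030 after quantile normalisation and -0.049 to 0.055 without 1 array. Nr3c2 in TAC-R minus normal was -0.0034 after quantile normalisation and -0.18 to 0.34 without 1 array, and -0.52 to 0.0020 in TAC-R minus TAC. Cebpd gave no value once rows below the negative control percentile were left out. The settings for the 7 named list genes were added after the data were seen.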
